A study of Mus musculus with 6 samples.

Results

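Melatonin, the hormone of the pineal gland, is the agent of this comparison: transcripts of mouse oocytes from the group labelled with the azo dye Sudan I and melatonin were set against those from the group with the dye alone. The comparison rests on 4 of the 6 libraries of the series, chosen by their labels: Sudan I libraries 1 and 2, and libraries 1 and 2 of the group given Sudan I and melatonin. The other 2 libraries are labelled as controls, which entered the fit to estimate the spread and whose values are given beside the others. Every group was of oocytes labelled as germinal vesicle, the stage at which the grown oocyte waits for meiosis to resume. The strain, age and number of animals, the dose and duration of either agent, and whether exposure was of the animal or in culture were not stated in the labels used here. Nor is it stated whether replicate libraries are independent pools of oocytes, so the p-values measure only the spread between these libraries, which may be technical.

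Melatonin acts through membrane receptors encoded by Mtnr1a and Mtnr1b, and it also scavenges reactive oxygen directly. In ovarian follicles it is known as an antioxidant, and it is often added to oocyte cultures for that reason. A germinal vesicle oocyte with condensed chromatin makes little new RNA and lives on stored transcripts, so its RNA level reflects storage and decay as well as synthesis. Azo dyes are broken down by reduction, and Sudan I is known in the liver as a ligand of the aryl hydrocarbon receptor.

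Melatonin left the transcript levels of Sudan I oocytes without a change that passed the test in any single gene: 0 of 14124 genes tested had an edgeR adjusted p under 0.05 (0% called, smallest adjusted p 0.547). Among genes with a gene name, enough counts and groups that did not overlap, Rassf4, Cd160, Zfp345 and Mb21d2 had the smallest p. Rassf4, a Ras-association gene, and Cd160, which encodes a receptor of immune cells, were at higher levels with melatonin. Zfp345, a zinc-finger gene, and Mb21d2 were at lower levels. Among gene groups, 69 of 78 transcripts for the cytosolic ribosome and 28 of 36 for respiratory complex I were at higher levels, beside 48.8% of all tested genes, and 199 of 313 for zinc-finger genes at lower levels, with no member past the threshold. Melatonin library 2 also had higher levels of short and GC-rich transcripts, and without it 29 of 47 large and 16 of 31 small subunit genes and 20 of 36 complex I genes were higher. For oxidative stress and apoptosis, which the title of the study names, 15 of 19 genes that remove superoxide and peroxide, 12 of 29 of the glutathione system and 8 of 15 of the BCL2 family were higher, none past the threshold. Oocyte markers were at similar levels in all 6 libraries.

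Each library held 20669373 to 26065453 counts over 16203 to 17006 genes, and the 10 most abundant genes took 4.59% to 4.98% of the counts. The sum of 9 oocyte markers was 25950 and 24470 CPM (counts scaled to library size) in the Sudan I libraries, in the order 1 and 2 that is kept from here on, and 25320 and 26070 with melatonin. All 9 passed the filter on low counts, as did 3 of 7 theca and stroma markers, whose sum was 8.42 to 13.4 CPM in the 6 libraries. The sum of 11 granulosa markers was 335.6 and 300.2 CPM in the Sudan I libraries and 301.2 and 412.2 in the melatonin libraries. Of 7 markers of endothelium, blood and immune cells 3 passed the filter, and the 7 summed to 83.6 to 105.9 CPM in the 6 libraries; among them the globin genes Hbb-bs and Hba-a1 had 0 counts in every library. Among the 4 libraries compared, melatonin library 2 stood apart in transcripts of high GC content and short length, and Sudan I library 2 in X-linked transcripts, so the list medians that they move most are also given without them. In bulk RNA of this kind, fewer cells of a type and less RNA per cell cannot be told apart.

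The libraries of the same treatment differed from each other about as much as those of different treatments. Over the 9656 genes with a mean of at least 5 CPM, the median absolute log2 difference was 0.145 between the Sudan I libraries and 0.18 between the melatonin libraries. Across treatments it was 0.12 between Sudan I library 1 and melatonin library 1, 0.184 between Sudan I library 1 and melatonin library 2, 0.158 between Sudan I library 2 and melatonin library 1, and 0.164 between Sudan I library 2 and melatonin library 2. The smallest of these distances therefore lay between libraries of different treatments, and the largest pair of distances both involved melatonin library 2.

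Of the 14124 genes, 6893 (48.8%) were higher with melatonin and 7231 lower, and the median log2 fold change was -0.006; the scaling of the libraries centres these values. An unadjusted p under 0.05 was reached by 251 genes that were higher (1.78%) and 290 that were lower (2.05%), 541 in all, where a uniform spread of p would give 706. With other tools limma-voom called 0 genes and DESeq2 9, with 4 higher and 5 lower, among them Rassf4, Cd160, Zfp345, Mb21d2 and Bbs2, and edgeR without the filter on low counts called 67. Both melatonin libraries lay above both Sudan I libraries in 2093 genes (14.8%) and below them in 2239 (15.9%). The 95% interval of the fold change lay within 1 log2 unit of 0 for 9902 genes (70.1%), so a change larger than 1 log2 unit in either direction is outside the interval for these. A fitted difference over 1 log2 unit was found in 485 genes, of which 24 had a mean of at least 5 CPM.

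**Figure D1:**
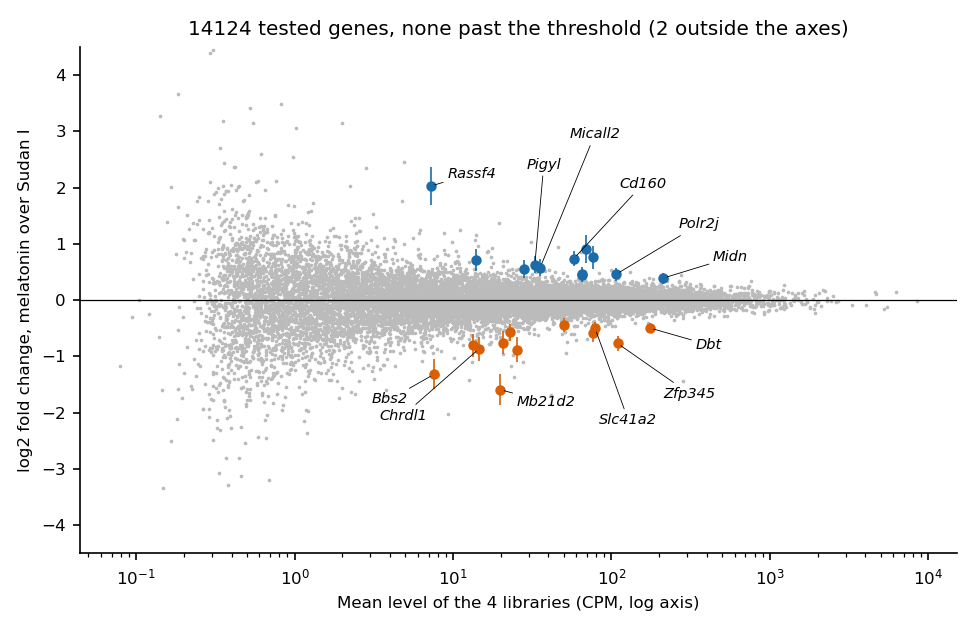
Log2 fold change of Sudan I plus melatonin over Sudan I (vertical axis) against the mean level of the 4 libraries in CPM (horizontal log axis) for the tested genes, in grey. Coloured points with bars of 1 standard error (SE) are 24 genes, 12 in each direction. They had the smallest p among genes with a gene name, a mean of at least 5 CPM and groups that did not overlap. The widest scatter is at low levels and Rassf4 stands highest among the coloured points at 2.03.

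Rassf4, whose protein family links Ras to the kinases of the Hippo pathway, had the smallest p of the genes named by p. Its level was 2.01 and 3.70 CPM in Sudan I, 8.74 and 14.4 with melatonin, and 11.4 and 12.04 in the controls. Both Sudan I libraries were lower than the other 4, and the melatonin libraries lay on either side of the controls. The mean with melatonin was 4.08-fold higher, or 2.03 on the log2 scale (SE 0.34, 95% interval 1.28 to 2.77), with an edgeR adjusted p of 0.547. The gene lies on chromosome 6 from 116633008 to 116673952 on the reverse strand (GRCm38, GENCODE M21) and overlaps Depp1 on the forward strand. The counting is not said to use strand, so reads of overlapping genes may be shared. Of the 15 tested members of the Rassf and Hippo list, 8 were higher and 7 lower, with a median of 0.05. The list's next members by p, the kinase adaptor Mob1a at -0.40 (SE 0.20) and the kinase Lats1 at 0.32 (SE 0.26), had opposite signs.

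Cd160 encodes a surface receptor that is held in the membrane of natural killer and T cells by a glycosylphosphatidylinositol (GPI) anchor. It stood at 47.6 and 39.0 CPM in the Sudan I libraries and 71.5 and 72.9 in the melatonin libraries, with 67.1 and 72.7 in the controls. The melatonin libraries differed little from each other or from control library 2, and both Sudan I libraries were below the other 4. The difference was 0.74 on the log2 scale (SE 0.13), and the edgeR adjusted p was 0.596. The gene lies on chromosome 3 from 96798763 to 96829351 on the reverse strand and overlaps Pdzk1. Pigyl, a gene named for its likeness to a subunit of the enzyme that starts GPI anchor synthesis, was at 25.5 and 25.9 CPM in Sudan I and 38.7 and 41.1 with melatonin, with 33.9 and 29.95 in the controls. Its log2 fold change was 0.63 (SE 0.14, edgeR adjusted p = 0.994), and its melatonin libraries were above the other 4. Of the 27 tested members of the GPI list 10 were higher and 17 lower, with a median of -0.09, or -0.02 without melatonin library 2. Pgap1, which trims the lipid of the finished anchor, had -0.55 (SE 0.20), and Dpm2, which helps to supply mannose for it, had 0.42 (SE 0.15).

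Zfp345 had the smallest p among the genes named by p that had lower levels. It stood at 150 and 126 CPM in Sudan I, at 85.4 and 76.2 with melatonin, and at 104 and 87.6 in the controls. The melatonin libraries were the lowest of the 6 and the Sudan I libraries the highest. The difference was -0.77 on the log2 scale (SE 0.13, edgeR adjusted p = 0.547). The gene lies on chromosome 2 from 150470991 to 150485091 on the reverse strand and overlaps no annotated gene, but it belongs to a family with near-identical copies, between which the authors' counting may have split reads.

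Mb21d2 was at 20.6 and 38.9 CPM in Sudan I and at 10.5 and 9.31 with melatonin. The controls, at 9.48 and 8.46, were close to the melatonin libraries, while the Sudan I libraries differed widely from each other. The log2 fold change was -1.59 (SE 0.27, edgeR adjusted p = 0.547), a 3.01-fold higher mean without melatonin. The gene lies on chromosome 16 from 28826176 to 28929673 on the reverse strand and overlaps no annotated gene.

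Dbt encodes the transacylase core of the mitochondrial complex that breaks down branched-chain amino acids. It was at 199 and 208 CPM in the Sudan I libraries and at 147 and 142 in the melatonin libraries. Here the controls, at 217 and 205, stood with the Sudan I libraries, and the melatonin libraries were below the other 4. The log2 fold change was -0.49 (SE 0.10, edgeR adjusted p = 0.722). Of the 22 tested genes for branched-chain amino acid breakdown, 12 were lower and 10 higher, with a median of -0.02. Groups did not overlap in 7 lower and 2 higher members (31.8% and 9.09%), beside 15.9% and 14.8% of all tested genes. Acadsb, a dehydrogenase of isoleucine breakdown, was 1 of the lower ones at -0.33 (SE 0.13), with 54.4 and 61.8 CPM in Sudan I and 48.5 and 43.8 with melatonin.

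Bbs2, a subunit of the BBSome that carries membrane proteins to cilia, was at 11.1 and 10.6 CPM in Sudan I and 3.36 and 5.31 with melatonin, with 5.74 and 6.10 in the controls. The Sudan I libraries were the highest of the 6. On the log2 scale the difference was -1.32 (SE 0.27, edgeR adjusted p = 0.905). Other genes of ciliary transport lay on both sides, 17 of 26 being higher, with Ift43, of the transport complex for return from the cilium tip, at 0.35 (SE 0.12) and Bbs5 at -0.32 (SE 0.16).

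**Figure D2:**
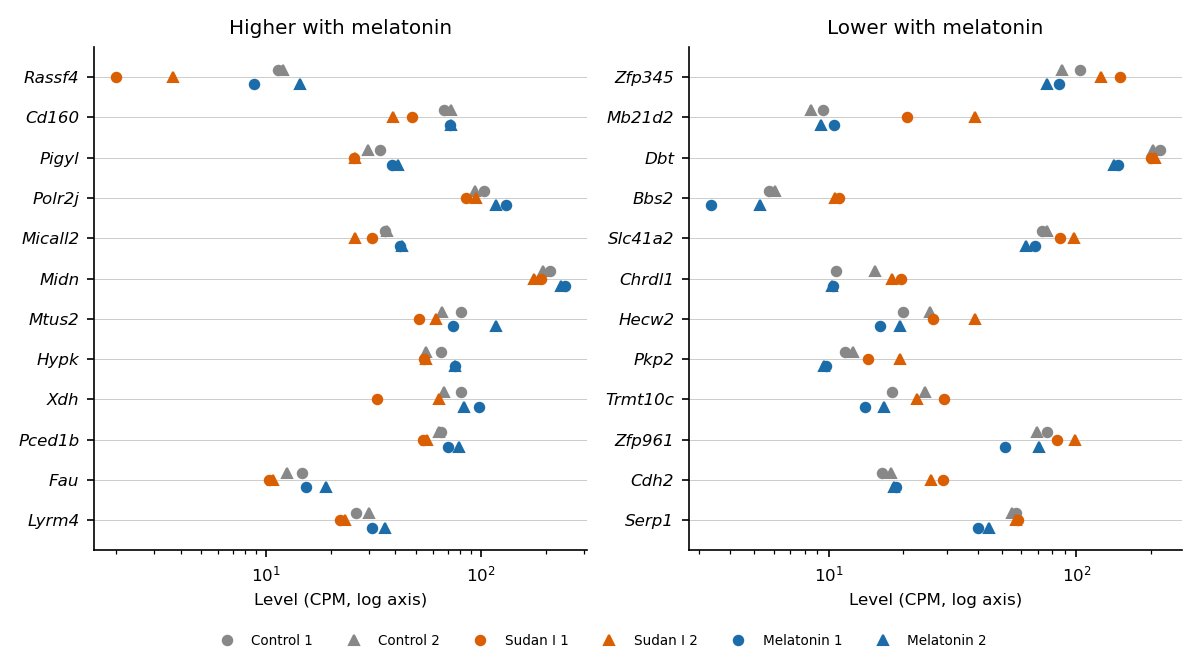
Level in CPM (horizontal log axis) in each of the 6 libraries for the 12 genes with the smallest p in each direction, with a mean of at least 5 CPM and no overlap between Sudan I and melatonin libraries. Rassf4, Cd160 and Mb21d2 have melatonin libraries near the controls, while in Dbt and Polr2j the Sudan I libraries are the ones near the controls.

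The remaining genes with the smallest p on the higher side had differences of less than 1 log2 unit. Polr2j, a subunit of RNA polymerase II, was at 85.0 and 95.04 CPM in Sudan I and 130 and 118 with melatonin, with controls at 103 and 94.0. Its log2 fold change was 0.46 (SE 0.11), and its melatonin libraries were the highest of the 6. Xdh encodes xanthine dehydrogenase, which acts in purine breakdown and yields reactive oxygen in its oxidase form. It was at 33.0 and 63.6 CPM in Sudan I and 98.3 and 83.1 with melatonin, with controls at 80.7 and 67.0. The log2 fold change was 0.91 (SE 0.25), and the low value of Sudan I library 1 stood apart from the other 5. Midn, whose protein brings nuclear proteins to the proteasome, was at 189 and 177 CPM in Sudan I and 245 and 235 with melatonin. Lyrm4, an assembly factor of iron-sulphur clusters in mitochondria, was at 22.02 and 23.3 CPM and at 31.0 and 35.6 in the same order. In both genes the spread within a group was smaller than the gap between groups, with log2 fold changes of 0.39 (SE 0.10) and 0.56 (SE 0.16). Hypk, a partner of the N-terminal acetyltransferase NatA, had 0.46 (SE 0.12), the actin regulator Micall2 0.58 (SE 0.15), the microtubule-binding gene Mtus2 0.76 (SE 0.20) and Pced1b 0.44 (SE 0.12). Hypk overlaps Serf2, Lyrm4 overlaps Fars2, Polr2j overlaps Lrwd1 and Pced1b overlaps Amigo2, so their counts are uncertain. The same holds for other genes of the text, such as Serp1, which overlaps Eif2a, and Gss, which overlaps Acss2. For all of the remaining genes on the higher side the edgeR adjusted p was 0.994.

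The remaining genes on the lower side had differences of less than 1 log2 unit as well. Slc41a2, a magnesium transporter, was at 86.1 and 98.2 CPM in Sudan I and 68.0 and 62.5 with melatonin. Cdh2, which encodes N-cadherin, was at 29.1 and 25.9 CPM in Sudan I and 18.6 and 18.3 with melatonin, with controls at 16.5 and 17.9. In both genes the Sudan I libraries were the highest of the 6, and the log2 fold changes were -0.50 (SE 0.12) and -0.57 (SE 0.16). Pkp2, a desmosome protein gene, had -0.80 (SE 0.21), Chrdl1, an antagonist of bone morphogenetic proteins, -0.86 (SE 0.21), and the ubiquitin ligase Hecw2 -0.88 (SE 0.22). Trmt10c, a subunit of the mitochondrial enzyme that trims and methylates transfer RNA, was at 29.2 and 22.7 CPM in Sudan I and 13.98 and 16.8 with melatonin. Serp1, a membrane protein of the endoplasmic reticulum, was at 58.0 and 57.3 CPM in Sudan I and 40.1 and 44.4 with melatonin, with controls at 57.1 and 55.0. Both had non-overlapping groups, with log2 fold changes of -0.75 (SE 0.21) and -0.45 (SE 0.13). Zfp961 had -0.58 (SE 0.16). The edgeR adjusted p of each was 0.994.

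Ranking by size rather than by p, among genes with a mean of at least 20 CPM, added genes whose replicates differed widely. Rilpl1, which binds Rab proteins near the cilium, was at 67.9 and 57.4 CPM in Sudan I and 34.4 and 5.10 with melatonin, and its log2 fold change was -1.68 (SE 0.59). Without melatonin library 1 it was -3.61, with an edgeR adjusted p of 0.00942. Tktl2, a relative of transketolase, was at 33.9 and 35.6 CPM in Sudan I and 8.30 and 18.7 with melatonin, while its controls were at 11.99 and 46.5. The spread between its controls was wider than the difference between the exposed groups. Fuk, the fucose kinase gene, had -0.94 (SE 0.36) with controls at 26.9 and 72.3 CPM. Zmynd8, a chromatin reader, had 0.85 (SE 0.34) with controls at 94.9 and 41.8 CPM. Gjb2, the gene of connexin 26, had -0.96 (SE 0.30), with 17.5 and 37.2 CPM in Sudan I and 14.2 and 13.9 with melatonin. The edgeR adjusted p of these genes was 0.994.

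Transcripts for the cytosolic ribosome were higher with melatonin in most cases. In the large subunit 42 of 47 tested members were higher, with a median log2 fold change of 0.25, and in the small subunit 27 of 31, with a median of 0.19, beside 48.8% and -0.006 over all tested genes. Groups did not overlap in 17 higher and 2 lower members of the large subunit (36.2% and 4.26%). In the small subunit it was 8 higher and 0 lower (25.8% and 0%), beside 14.8% and 15.9% of all tested genes. No member was called by edgeR. An unadjusted p under 0.05 was reached by 3 of 47 and 2 of 31 members, all higher. Of all tested genes, 1.78% reached it on the higher side and 2.05% on the lower. Fau, whose protein joins a ubiquitin-like part to a small subunit protein, was at 10.3 and 10.7 CPM in Sudan I and 15.4 and 19.1 with melatonin, with controls at 14.8 and 12.5. Its log2 fold change was 0.71 (SE 0.20, edgeR adjusted p = 0.994), and the Sudan I libraries were the lowest of the 6. Rpl32 was at 8.46 and 11.1 CPM in Sudan I and 12.7 and 18.5 with melatonin, a log2 fold change of 0.67 (SE 0.25). Rps15 was at 39.7 and 39.9 CPM and at 49.4 and 54.4 in the same order, a log2 fold change of 0.38 (SE 0.15). Ribosomal genes have many processed pseudogenes, so their counts depend on how reads with several matches were treated.

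Melatonin library 2 held most of this difference, and Sudan I library 1 a part of it. The median deviation of the large subunit from the 6-library mean, on the log2 scale, was -0.12 and -0.005 in Sudan I, 0.06 in melatonin library 1 and 0.28 in melatonin library 2, with -0.04 in both controls. The small subunit stood at -0.15 and -0.04 in Sudan I and at -0.06 and 0.24 with melatonin, so that melatonin library 1 lay between the Sudan I libraries. Without melatonin library 2 the medians were 0.11 and 0.0029, and 29 of 47 and 16 of 31 members were higher. Without melatonin library 1 they were 0.38 and 0.31. They were 0.15 and 0.13 without Sudan I library 1, and 0.31 and 0.34 without Sudan I library 2.

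Translation of ribosomal protein transcripts is known to be regulated through a tract of pyrimidines that begins with C at the first base of the transcript. The start sites below are of 5 ribosomal genes whose promoters in RefSeq (GRCm38.p6) carry such a tract. In each, both melatonin libraries were above both Sudan I libraries. The genes were taken in order of p with part of the genome passed over, so genes with a smaller p may be missing. They are shown so that the tract can be seen, and were chosen after their values were known. Each runs 5′ to 3′ on the gene's strand from 20 bases before the annotated start to 10 bases of the transcript, with the tract in capitals.
Fau, chr19:6057927-6057956, forward strand: ggacgtgcgcgcccccacttCTTCCTCTTT
Rpl38, chr11:114668560-114668589, forward strand: ccggaagcggaagcctcgttCTTTCCCCgt
Rpl28, chr7:4792945-4792974, forward strand: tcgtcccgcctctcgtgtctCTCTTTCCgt
Rps10, chr17:27635235-27635264, reverse strand: acgctgcgccgcgcacgcccCTTCCTTTCC
Rps15a, chr7:118116138-118116167, reverse strand: gcccactctctttctgccatCTTCCCTCgc
The tract was defined as at least 5 bases at the start that are all C or T, the first being C, read on the gene's own strand, and it was present at 2.47% of 11070 start sites of tested genes. It was found at 11 of 57 ribosomal genes, but only 57 of 78 (73.1%) had a start site in the table, so no comparison over the list was made. Only the first listed start of each gene was read. A tract that begins at any other base was not counted, so the share with a tract may be too low. Rpl38 was at 2.34 and 2.12 CPM in Sudan I and 3.75 and 4.98 with melatonin, a log2 fold change of 0.97 (SE 0.33), and Rpl28 had 0.71 (SE 0.29). Rps10 had 0.44 (SE 0.26) and Rps15a 0.57 (SE 0.40). Counts of RNA do not show translation.

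Transcripts for some nuclear-encoded parts of the mitochondrion were mostly higher with melatonin and others were not. Complex I, which takes electrons from NADH, had 28 of 36 members higher with a median of 0.18, complex IV, cytochrome oxidase, 12 of 14 with 0.17, and ATP synthase 16 of 19 with 0.15. Groups did not overlap in 17 higher and 2 lower members of complex I (47.2% and 5.56%) and in 5 and 0 of complex IV (35.7% and 0%), beside 14.8% and 15.9% of all tested genes. In ATP synthase the 3 higher and 1 lower members (15.8% and 5.26%) gave a higher share near that of all genes. No member was called. Ndufb11, an accessory subunit of complex I, was at 54.6 and 54.4 CPM in Sudan I and 65.7 and 74.0 with melatonin, with controls at 58.9 and 59.3. Its log2 fold change was 0.36 (SE 0.12), and its melatonin libraries were the highest of the 6. Ndufa6 had 0.43 (SE 0.15) and Ndufa13 0.65 (SE 0.28), both accessory subunits as well. Atp5k, a subunit of the membrane part of ATP synthase, was at 6.87 and 8.88 CPM in Sudan I and 11.9 and 15.2 with melatonin, a log2 fold change of 0.78 (SE 0.24). Proteins of the mitochondrial ribosome were higher in 53 of 77 cases with a median of 0.08, with Mrpl54 at 0.70 (SE 0.21). Complex III had 5 of 9 members higher, the import of proteins into mitochondria 17 of 36 with a median of -0.02, and the citric acid cycle list 10 of 26 with a median of -0.03. In the last of these Pdk1 and Pdk2, kinases that switch off pyruvate dehydrogenase, had opposite signs, -0.74 (SE 0.23) and 0.69 (SE 0.27). Pdk1 was at 17.0 and 26.6 CPM in Sudan I and 14.7 and 11.5 with melatonin, and Pdk2 at 4.02 and 3.65 and at 6.18 and 6.24.

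These mitochondrial medians also depended on melatonin library 2, and some of them on the Sudan I libraries. Without Sudan I library 1 they were 0.13 for complex I, 0.12 for complex IV, 0.09 for ATP synthase and 0.0062 for the mitochondrial ribosome. Without Sudan I library 2 they were, in the same order, 0.22, 0.21, 0.26 and 0.18. Deviations for complex I were -0.11 and 0.01 in Sudan I, 0.01 in melatonin library 1 and 0.23 in melatonin library 2. Without melatonin library 2 the median was 0.06 for complex I, 0.02 for complex IV, -0.01 for ATP synthase, -0.0041 for the mitochondrial ribosome, -0.11 for protein import and -0.09 for the citric acid cycle; without melatonin library 1 the last 2 were 0.08 and 0.05. Genes for fission and fusion of mitochondria had 14 of 21 members lower, with a median of -0.06, and those for mitochondrial DNA had 11 of 19 higher. Tfam, which packs mitochondrial DNA, was at 47.6 and 58.3 CPM in Sudan I and 48.7 and 46.1 with melatonin, with overlapping groups.

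**Figure D3:**
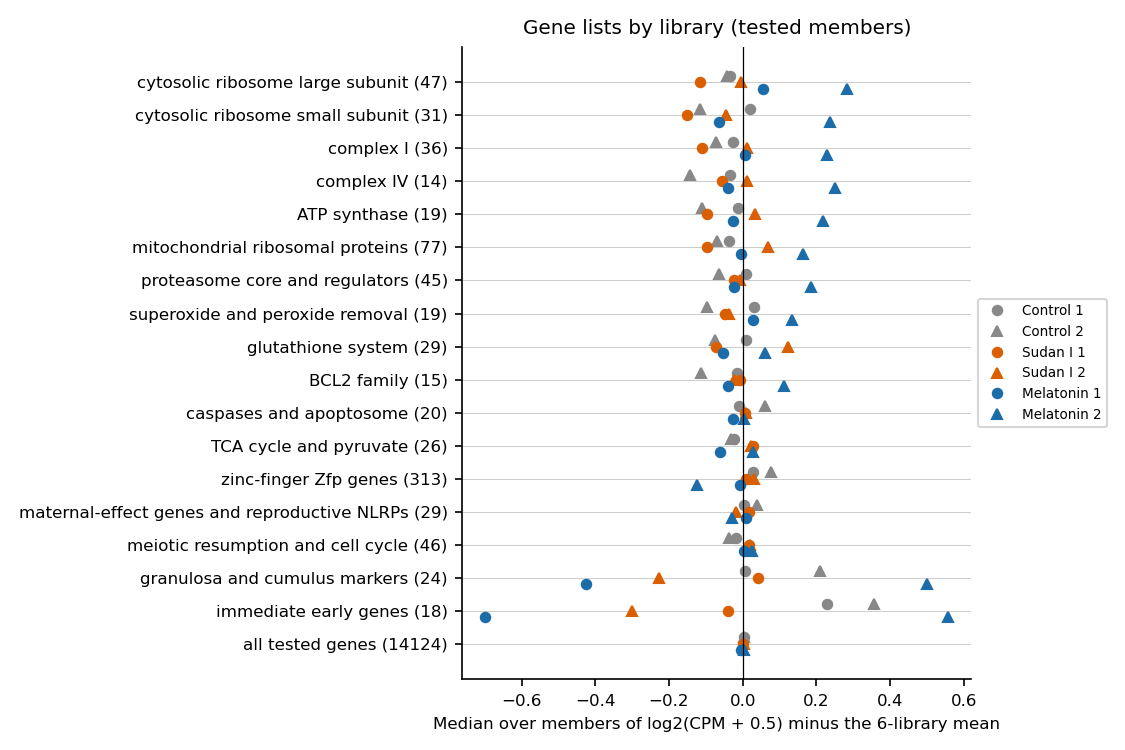
Median over the tested members of each gene list (number in brackets) of log2(CPM + 0.5) minus its mean over the 6 libraries (horizontal axis, log2 units), 1 point per library. Melatonin library 2 is the highest of the 6 in both ribosomal lists, complexes I and IV and ATP synthase, while melatonin library 1 is near 0 in them; the immediate early and granulosa lists spread widest.

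Among antioxidant genes the enzymes that remove superoxide and peroxide were mostly higher and the glutathione system was not. In the first list 15 of 19 members were higher with a median of 0.12, and groups did not overlap in 8 higher members and 1 lower member (42.1% and 5.26%), beside 14.8% and 15.9% of all tested genes. Without melatonin library 2 that median was 0.07 with 11 of 19 higher. Sod1, the cytosolic superoxide dismutase, was at 185 and 179 CPM in Sudan I, 207 and 236 with melatonin and 202 and 180 in the controls. The controls spanned nearly the whole distance from the Sudan I libraries to melatonin library 1. On the log2 scale melatonin was higher by 0.28 (SE 0.11, 95% interval 0.04 to 0.52), with an edgeR adjusted p of 0.994. Sod2, the mitochondrial form, had 0.19 (SE 0.16, 95% interval -0.16 to 0.55), and Cat, the catalase gene, 0.42 (SE 0.43, 95% interval -0.52 to 1.37) at 1.13 to 1.88 CPM in the 4 libraries. Prdx1, a peroxiredoxin, went the other way, with 294 and 337 CPM in Sudan I and 213 and 291 with melatonin. In the glutathione system 12 of 29 members were higher, with a median of -0.10. Gss, which completes glutathione, was at 5.86 and 5.55 CPM in Sudan I and 8.55 and 10.4 with melatonin, a log2 fold change of 0.73 (SE 0.24). Gclc, which carries out the first step, had -0.26 (SE 0.17), and Gpx4, which removes lipid peroxides, 0.51 (SE 0.25). Without Sudan I library 2 the median of the glutathione list turned positive, at 0.07. Of 20 genes of the NRF2 pathway, the main switch of antioxidant genes, 11 were higher, with a median of 0.02 and Sqstm1, an autophagy receptor, at 0.35 (SE 0.15). That median was -0.12 without melatonin library 2.

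Genes of cell death had fold changes of both signs. In the BCL2 family 8 of 15 members were higher, with a median of 0.02, and without melatonin library 2 it was 6 of 15, with a median of -0.23. Bcl2l1, which protects from apoptosis, was at 220 and 201 CPM in Sudan I and 221 and 249 with melatonin, and Bcl2l11, which promotes it, at 20.1 and 23.9 and at 17.6 and 19.3. These had log2 fold changes of 0.16 (SE 0.10) and -0.26 (SE 0.17). Bax had 0.05 (SE 0.25, 95% interval -0.51 to 0.61), so a change of more than 1 log2 unit lies outside the interval. For Bcl2, at 1.17 to 3.16 CPM, the interval of -1.82 to 0.56 does not allow that statement. Of caspases and apoptosome genes 8 of 20 were higher, with a median of -0.06. Casp8, the caspase of death receptors, was at 12.02 and 15.7 CPM in Sudan I and 8.65 and 10.2 with melatonin, a log2 fold change of -0.56 (SE 0.23). The p53 list had 8 of 20 members higher and the DNA repair list 16 of 43, with medians of -0.01 and -0.04; without melatonin library 2 that of the p53 list was 0.07. In the autophagy list 17 of 31 were higher, and Map1lc3a, of the autophagosome coat, had 0.33 (SE 0.13).

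The genes of the melatonin membrane receptors were at or near 0 counts. Mtnr1a had 1 count in the 6 libraries together and Mtnr1b had 0, and of the genes that make melatonin Asmt had 4 and Tph1 17. For Mtnr1b, 0 counts in a total of 138976469.0 allows up to 3 counts, or 0.0216 CPM, by counting error alone, so the gene was not detectable at this depth. Of 21 genes on the list for melatonin reception, synthesis and breakdown 11 passed the filter, and 6 of these were higher, or 3 without melatonin library 2. Rora, a nuclear receptor once proposed as a melatonin target, was at 49.996 and 76.6 CPM in Sudan I and 60.9 and 50.9 with melatonin, and Nqo2, the quinone reductase that binds melatonin, at 2.85 and 4.73 and at 3.80 and 4.86. The groups overlapped in both. Of the sirtuins, deacetylases often studied with melatonin, Sirt1 had -0.19 (SE 0.12), Sirt3 0.41 (SE 0.31) and Sirt6 0.26 (SE 0.16). Clock genes were evenly split, 10 of 20 being higher. For the dye's receptor pathway, Cyp1a1 had 0 counts in every library, and Ahr was at 63.0 and 73.6 CPM in Sudan I and 64.8 and 48.4 with melatonin. Its target Tiparp had -0.20 (SE 0.15) and Cyp1b1, of the same list, 0.15. Of the 8 tested members of that list 5 were higher, with a median of 0.03, or -0.05 without melatonin library 2.

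Protein turnover and RNA lists were partly one-sided. Proteasome genes were higher in 36 of 45 cases with a median of 0.08, with Psmb3 at 0.44 (SE 0.19) and Psmb6 at 0.30 (SE 0.13), both of the catalytic core. Without melatonin library 2 that median was -0.03. Among ubiquitin-conjugating enzymes 15 of 30 were higher, and the 3 with the smallest p, Ube2d3, Ube2g1 and Ube2q2, were all lower, at -0.25 (SE 0.09), -0.28 (SE 0.11) and -0.46 (SE 0.19). Genes of the unfolded protein response had 21 of 35 higher, and groups did not overlap in 11 higher and 2 lower members (31.4% and 5.71%), beside 14.8% and 15.9% of all tested genes. Their medians stayed between 0.05 and 0.09 under every alternative run. Derl3, of the machinery that clears misfolded proteins, was at 74.2 and 66.7 CPM in Sudan I and 87.4 and 84.2 with melatonin, and Manf, a protein of the endoplasmic reticulum induced by stress there, at 84.3 and 83.0 and at 102 and 94.8. Their log2 fold changes were 0.28 (SE 0.11) and 0.23 (SE 0.11). The chaperone Hsp90aa1 was at 2109 and 2075 CPM in Sudan I and 1784 and 1778 with melatonin, a log2 fold change of -0.23 (SE 0.09), and its melatonin libraries were the lowest of the 6. Spliceosome genes were higher in 23 of 35 cases with a median of 0.06. Without melatonin library 2 it was 18 of 35 with a median of 0.03, and without melatonin library 1 the median was 0.19. An unadjusted p under 0.05 was reached by 4 higher and 0 lower spliceosome genes, beside 1.78% and 2.05% of all tested genes. Snrnp70, of the particle that binds the 5′ splice site, was at 208 and 185 CPM in Sudan I and 242 and 258 with melatonin, a log2 fold change of 0.35 (SE 0.10). Chaf1a, a histone chaperone, was at 685 and 665 CPM in Sudan I and 807 and 804 with melatonin, a log2 fold change of 0.25 (SE 0.09), and 19 of 29 genes of its list were higher.

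Zinc-finger genes with Zfp symbols, most of them sequence-specific repressors, were lower with melatonin in 199 of 313 cases, with a median of -0.08. Groups did not overlap in 77 lower members (24.6%) and 28 higher ones (8.95%), beside 15.9% and 14.8% of all tested genes. An unadjusted p under 0.05 was reached by 15 lower members and 1 higher one, beside 2.05% and 1.78% of all tested genes, and none was called. Without melatonin library 2 the median was -0.04, with 139 of 313 higher, and without melatonin library 1 it was -0.15. Zfp715 was at 15.8 and 19.3 CPM in Sudan I and 12.8 and 10.5 with melatonin, a log2 fold change of -0.59 (SE 0.19). Its controls, at 22.7 and 26.9, were above all 4 exposed libraries. The chromosomes with the most Zfp genes had medians of -0.02 on chromosome 7 (75 genes) and -0.17 on chromosome 17 (39 genes). Deviations were 0.01 and 0.03 in Sudan I, -0.01 in melatonin library 1 and -0.12 in melatonin library 2. Zfp genes have low GC content, with a median of 44.8% beside 49.4% for all tested genes.

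Fold changes followed the GC content and length of the transcripts. In the decile of genes with the lowest GC content the median log2 fold change was -0.11 and 26.2% were higher, and in the decile with the highest it was 0.09 and 65.1% were higher. In the decile with the shortest exons the median was 0.10 and 63.7% were higher, and in the longest decile it was -0.04 and 40.3%. Melatonin library 2 moved most with both, from -0.14 to 0.15 over the GC deciles and from 0.15 to -0.12 over the length deciles. Sudan I library 1 went from 0.08 to -0.07 over the GC deciles. With a correction for both properties, the medians were 0.19 for the large ribosomal subunit (39 of 47 higher), 0.18 for the small, 0.17 for complex I, 0.10 for complex IV and -0.03 for the Zfp genes (139 of 313 higher). The part of these properties in the list results beyond that correction was not tested.

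**Figure D4:**
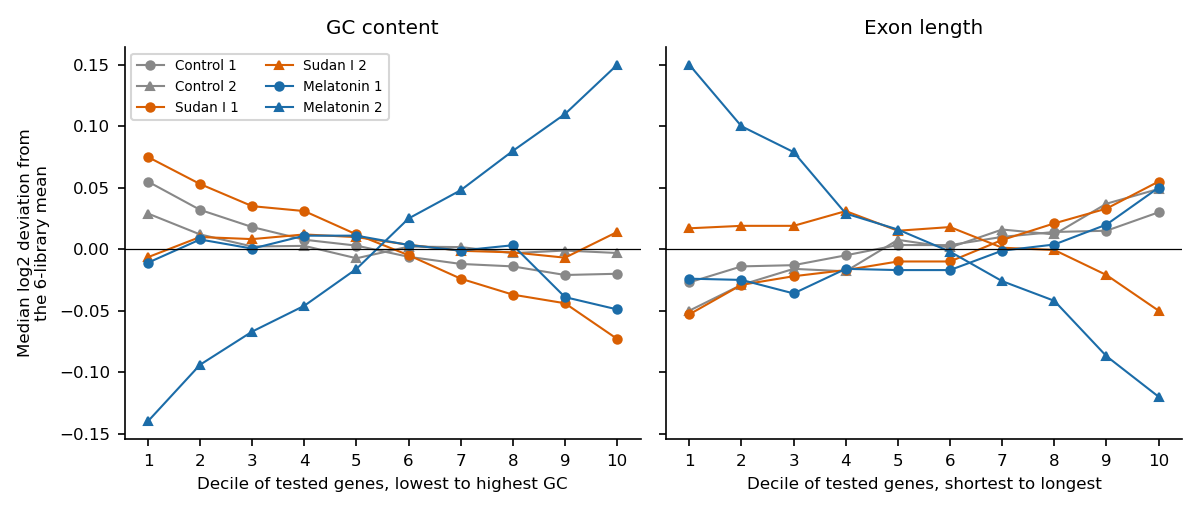
Median log2 deviation from the 6-library mean (vertical axis) in deciles of the tested genes ordered by GC content (left) or exon length (right), 1 line per library. Melatonin library 2 has the steepest line in both panels, from -0.14 to 0.15 with GC content, and Sudan I library 1 slopes the other way with GC content.

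Transcripts of the oocyte's own functions differed little between the groups. Of maternal-effect and reproductive NLRP genes 12 of 29 were higher, with a median of -0.03, and of genes for meiotic resumption and the cell cycle 18 of 46, with a median of -0.01. Gdf9, the oocyte growth factor, was at 6113 and 5831 CPM in Sudan I and 6149 and 7055 with melatonin, and Zp3, a zona pellucida protein gene, at 2396 and 2489 and at 2308 and 2556. For Zp3 the 95% interval of the log2 fold change was -0.24 to 0.22. Ccnb1, which encodes cyclin B1 for entry into meiotic division, was at 513 and 399 CPM in Sudan I and 374 and 367 with melatonin, a log2 fold change of -0.30 (SE 0.12). Zar1, which helps to store maternal transcripts, was at 1118 and 1125 CPM and at 1238 and 1459, a log2 fold change of 0.27 (SE 0.11). Of the spindle, kinetochore and checkpoint genes 24 of 46 were higher. The kinetochore genes Casc5 and Spc25 had -0.57 (SE 0.17) and -0.44 (SE 0.16), and Incenp, of the chromosomal passenger complex, had 0.22 (SE 0.10). Of the oocyte transcription factors 11 of 22 were higher.

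The melatonin libraries stood furthest apart from each other in genes of immediate early response and of granulosa cells. Immediate early genes, switched on within minutes of a signal, had 15 of 18 members higher with a median of 0.41. Yet groups did not overlap in only 1 higher and 1 lower member (5.56% each), beside 14.8% and 15.9% of all tested genes. Jun was at 11.2 and 6.49 CPM in Sudan I, 3.95 in melatonin library 1 and 33.2 in melatonin library 2, with controls at 20.4 and 32.7. Melatonin library 1 was the lowest of the 6 and melatonin library 2 the highest. The list's deviations were -0.04 and -0.30 in Sudan I and -0.70 and 0.56 with melatonin, and its median was -0.84 without melatonin library 2 and 0.88 without melatonin library 1. The granulosa list had 15 of 24 members higher with a median of 0.35 and deviations of -0.42 and 0.50 in the melatonin libraries; the median was -0.28 without melatonin library 2 and 0.87 without melatonin library 1. Inha, the inhibin subunit of granulosa cells, was at 41.5 and 21.1 CPM in Sudan I and 27.8 and 92.9 with melatonin. Amh, the granulosa hormone, was at 7.87 and 6.85 CPM and at 5.24 and 21.7. The sign of both lists was set by which melatonin library was counted. Ribosomal and mitochondrial lists were highest in the same melatonin library as the granulosa list, and the part of granulosa RNA in them was not tested.

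Genes on the X chromosome gave values that rested on 1 Sudan I library. Of 503 tested X-linked genes 316 (62.8%) were higher, with a median of 0.07, beside 6519 of 13501 autosomal genes (48.3%) and -0.01. Groups did not overlap in 78 higher and 34 lower of the 503 X-linked genes, beside 14.8% and 15.9% of all tested genes. The higher share was thus near that of all genes and the lower share was below it. An unadjusted p under 0.05 was reached by 12 higher and 3 lower X-linked genes, beside 1.78% and 2.05% of all tested genes. The median deviation of X-linked genes was 0.07 in Sudan I library 1 and -0.22 in Sudan I library 2, 0.04 and -0.01 in the melatonin libraries, and 0.06 and 0.07 in the controls. Sudan I library 2 thus stood apart from the other 5, and it was the lowest library for 253 X-linked genes (50.3%) beside 2019 of 13501 autosomal genes. Its autosomes had medians from -0.0047 to 0.043. In 10 blocks of X-linked genes in order of position, the library's median deviation lay between -0.18 and -0.30. Without Sudan I library 2 the X-linked median was -0.08 and without Sudan I library 1 it was 0.26, so the sign rests on that library.

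**Figure D5:**
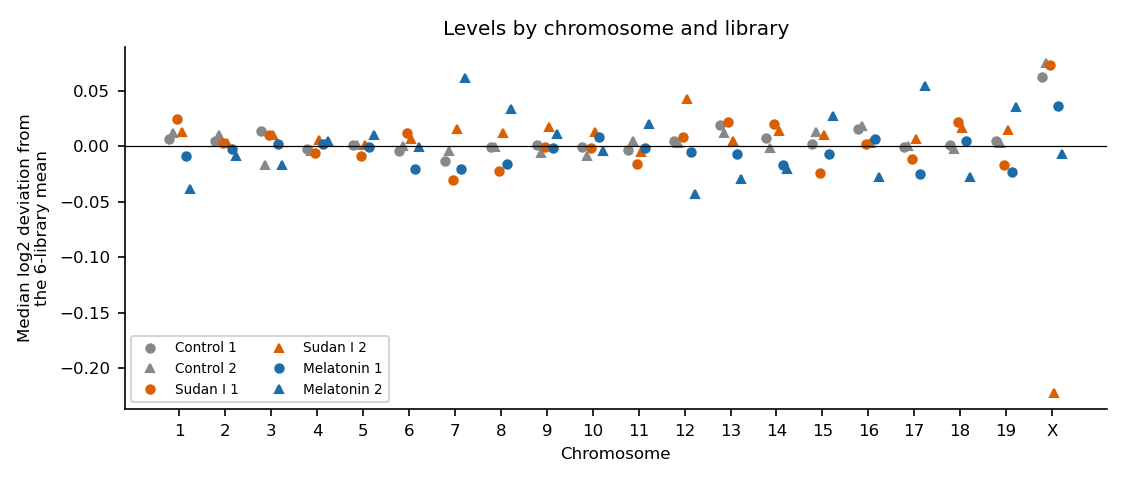
Median log2 deviation of tested genes from the 6-library mean (vertical axis) by chromosome (horizontal axis), 1 point per library. Sudan I library 2 is at -0.22 on the X chromosome, and every autosome median in any library lies between -0.04 and 0.06.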

How the data were processed

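The authors deposited whole-number read counts per gene symbol (24369 rows) for 6 libraries prepared by a standard Illumina protocol, per the labels. No source used here names the aligner, the counting program, the strand setting or the genome build. In 27 rows a date replaced the symbol (0.256% of counts); 23 of them were tested but not named. Positions, GC content and exon length came from GENCODE M21 (GRCm38): 23203 symbols matched directly, 762 as synonyms and 404 not.

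Genes were filtered with filterByExpr (minimum count 10), leaving 14124. TMM factors (trimmed mean of M-values) scaled the libraries. All 6 entered 1 edgeR 4.0.16 quasi-likelihood fit in R 4.3.3, with a mean per group, 3 residual degrees of freedom and a common biological coefficient of variation of 0.167. Sudan I plus melatonin was compared with Sudan I, with Benjamini-Hochberg adjustment over all genes and a threshold of 0.05. CPM are counts scaled to the TMM-adjusted library total of tested genes. Per-library deviations are of log2(CPM + 0.5). With 2 libraries against 2 an exact permutation test cannot reach 0.05, so none was run. The fit was checked on simulated data. Having 2 libraries per group limits the precision.

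The 60 gene lists, the genes and the rules were chosen with earlier results of these data known, so no list is independent evidence of its direction. Lists are described by counts and medians, without a test. Genes were named by a rule: per direction the 12 smallest p (mean at least 5 CPM) and the 6 largest fold changes (mean at least 20 CPM), groups not overlapping and loci without a gene name passed over, plus up to 3 members per list by p and a set of redox, apoptosis, melatonin and oocyte genes. The text does not print all 207, and 1 gene of the set is not reported here. Genes under 5 CPM or in the start-site set that the rule does not cover (Rpl38, Rpl28, Rps10, Rps15a) were chosen after their values were seen. Alternatives were DESeq2 1.42.0, limma 3.58.1 with voom, other scalings and filters, only the 4 exposed libraries, a replicate block, leaving out each library, and a correction for GC content and length.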

Additional observations from a re-analysis of the deposited data

How the results depend on the processing

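The count of 0 called genes was also 0 with only the 4 exposed libraries, DESeq2 size factors, upper quartile scaling, a mean of at least 5 CPM, limma-voom, the replicate block, and the correction for GC content and length, which was chosen after seeing the data. It was 67 (34 higher, 33 lower) without the filter on low counts and 9 by DESeq2, which called Rassf4, Mb21d2, Zfp345, Cd160, Bbs2, Chst9, Col9a2 and 2 loci without a gene name; the cause was not tested. Leaving out 1 library gave 0 to 1 calls: Rilpl1 without melatonin library 1 (edgeR adjusted p = 0.00942) and Gm11545 without melatonin library 2 (edgeR adjusted p = 0.0498); the lone sample is then assumed to vary like the other groups. The 541 genes at an unadjusted p under 0.05 became 858 without the filter and 339 (without Sudan I library 2) to 1222 (without melatonin library 1) when 1 library was left out.

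Libraries with the same number in their titles did not deviate together (correlations of 0.0412 to 0.0633), so no pairing by those numbers was seen. The count columns also carry codes with other numbers, and a pairing by these was not tested. The replicate block, by title number, gave 0 calls and 635 genes at an unadjusted p under 0.05. Of the 207 named genes 185 kept their sign under the 15 alternatives; the 29 named by p or size were chosen for groups that do not overlap, which largely fixes their sign when a library is left out.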
